A study of Mus musculus with 2 samples.

Results

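Transcripts that arise outside annotated genes were examined in long-read RNA sequencing of mouse hippocampus. The members are the transcript models that TALON, the program behind the deposited structures, classed as Intergenic, that lie off the mitochondrial chromosome and that have at least 3 reads in a library. Replicate 1 held 1124 such models and replicate 2 held 876, which makes 2000 of the 265985 models of all classes in the deposited tables. Models that shared at least 1 exonic base on the same strand were joined, within and across libraries, into 1431 loci. The members were thus chosen by their read counts and their class, so neither is a finding. Models with exactly 3 reads, just inside the rule, numbered 370 in replicate 1 and 298 in replicate 2. Models with exactly 2 reads, just outside it, numbered 874 and 761.

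The study has 1 group, hippocampal tissue, named a layer of hippocampus in the labels, of female B6CASTF1/J mice, a C57BL/6J by CAST/EiJ hybrid, at 2 months of age. It has 2 libraries, each made from 2 µg of RNA and labelled as biological replicates 1 and 2. Both carry the same donor label, and nothing in the labels says that they came from separate animals, so the p-values below set these libraries against each other and may reflect technical spread alone. No treatment, genotype or age was compared. The tables held 836240 reads in replicate 1 and 752291 in replicate 2, of which 826596 and 745492 were not on spike-in RNAs. Levels are given in CPM, reads per 1000000 reads not on spike-ins, so that a single read gave 1.21 CPM in replicate 1 and 1.34 in replicate 2. Of 31 markers of 11 cell types of hippocampus, blood and choroid plexus, 30 had reads in both libraries, and summed markers of excitatory neurons reached 3218 and 3158 CPM. Choroid plexus markers summed to 339 CPM in replicate 1 and 185 CPM in replicate 2. Nearly all of this was Ttr (328 and 176 CPM), with Kl at 9.68 and 8.05 and Folr1 at 1.21 and 1.34. Blood markers summed to 217 and 331 CPM. In bulk RNA, more cells of a type and more RNA per cell cannot be told apart, and the part of cell composition in the values of single loci was not tested.

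RNA polymerases copy much more of a mammalian genome than the annotated genes. Known sources of such RNA are read-through past the ends of genes, transcription that leaves a promoter in the reverse direction, unannotated long noncoding RNAs, and interspersed repeats. Among the repeats, mouse B2 elements are short interspersed elements with an internal RNA polymerase III promoter made of an A box and a B box, and their 3′ ends are rich in A and hold AATAAA. In brain, unspliced intergenic RNA is also known from enhancers. Long reads of cDNA are pooled into transcript models, each with recorded ends and a strand.

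Intergenic members were mostly unspliced, and about every other one had nearly the same short length. A window of 150 to 210 bases, chosen after the lengths had been seen, held 53.6% of the single-exon intergenic members of replicate 1 (596 of 1111, exact 95% interval 50.7 to 56.6%) and 50.3% of those of replicate 2 (437 of 868, 47.0 to 53.7%), a mean of 52.0% ± 2.33 (SD, n = 2). These single-exon members formed or took part in 736 loci. In the same window lay 6.41% and 6.13% of single-exon Antisense models, which lie on the strand opposite a gene, and 8.55% and 6.96% of Genomic models, which overlap a gene without matching its splicing. For annotated single-exon models the shares were 1.45% and 1.32%. By reads, the window held 57.8% and 56.8% of the single-exon members' reads. The most frequent length of a single-exon member was 177 bases in replicate 1 and 178 bases in replicate 2.

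**Figure D1:**
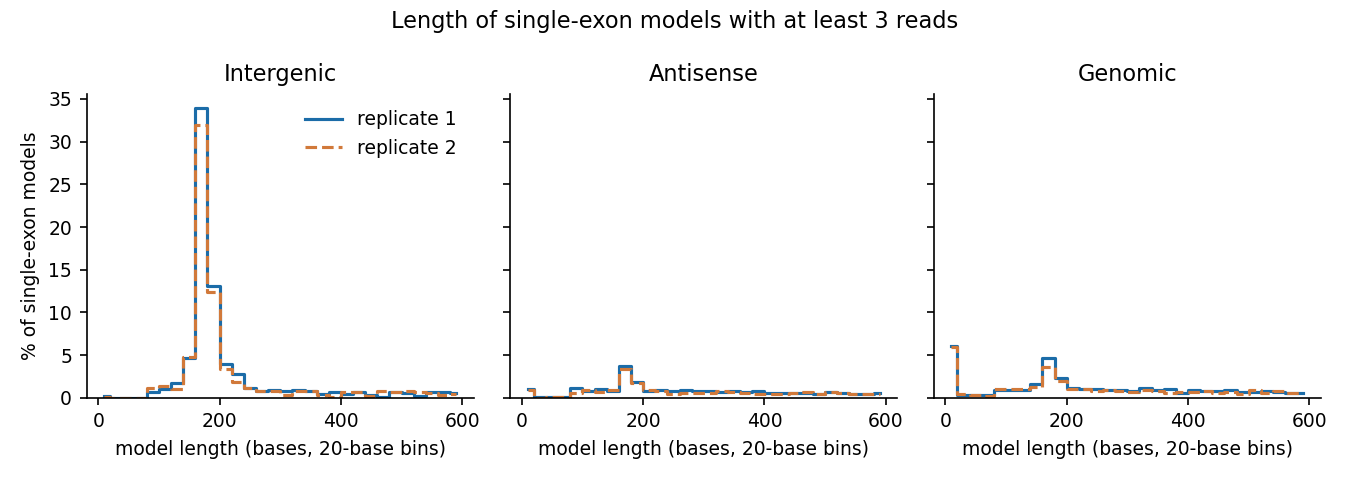
Share of single-exon models with at least 3 reads (y axis, %) by length in bases (x axis, 20-base bins up to 600 bases) for Intergenic, Antisense and Genomic models in replicate 1 (solid line) and replicate 2 (dashed line). Intergenic models peak between 160 and 179 bases in both libraries, and the other classes have a low peak at the same place.

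Few of the short models lie where bases of the genome were at hand, since the letters used here come from RefSeq promoter windows and annotated transcripts only. Of the 736 loci with a single-exon member of 150 to 210 bases, 16 had at least 1 known base and 4 had at least 40. They are shown because they are the only view of what the short models consist of, and that choice rests on where the annotation lies, not on their levels. Capitals mark the B box consensus GTTCNANNC and the polyadenylation hexamer AATAAA, searched on the strand of the model. Letters are from RefSeq (GRCm38.p6), read 5′ to 3′ along the model.
L1020, last 126 of 177 bases, chr5:93221397-93221522, plus strand: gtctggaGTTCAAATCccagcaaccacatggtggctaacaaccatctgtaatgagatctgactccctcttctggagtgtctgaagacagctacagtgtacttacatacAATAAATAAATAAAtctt
L1170, last 133 of 176 bases, chr7:29237511-29237643, minus strand: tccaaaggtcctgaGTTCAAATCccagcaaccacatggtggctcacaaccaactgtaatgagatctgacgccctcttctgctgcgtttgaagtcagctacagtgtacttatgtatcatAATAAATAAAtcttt
L0673, first 57 of 177 bases, chr19:57404215-57404271, minus strand: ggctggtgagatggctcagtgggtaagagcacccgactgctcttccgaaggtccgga
L0704, first 201 of 209 bases, chr2:32236390-32236590, minus strand: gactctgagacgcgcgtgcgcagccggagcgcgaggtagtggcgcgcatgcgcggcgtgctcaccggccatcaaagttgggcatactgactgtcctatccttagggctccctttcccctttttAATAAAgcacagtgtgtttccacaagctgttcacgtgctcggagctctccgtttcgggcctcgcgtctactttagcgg

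L1020 and L1170, on different chromosomes and near different genes (the RefSeq windows of Gm42116 and Yif1b), matched each other at 108 of 121 aligned columns (89.3%), with 12 mismatches and 1 gap. Both hold the B box GTTCAAATC, and their longest shared stretch of 31 bases, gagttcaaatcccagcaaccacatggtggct, runs through it. Both end within a few bases of overlapping AATAAA hexamers, 3 in L1020 and 2 in L1170. By background knowledge these are letters of a B2 element, and the known letters of L0673 are those of the start of one. The box begins at base 59 of L1020 and base 58 of L1170, while L0673 is known only up to base 57, so a box could not be sought there. L0704 has neither the box nor the shared stretch over its known letters and begins in the promoter window of Pomt1. Reads were few at the loci, with 2 and 4 at L1020, 8 and 1 at L0673, and 5 and 4 at L0704 in replicates 1 and 2. L1170 is short in replicate 2 only, where its model of 176 bases had 14 reads. In replicate 1 the model there had 17 reads and 566 bases, so the locus is not among the short ones below. Among 32851 RefSeq promoter windows of 300 bases, 9.32% hold GTTCNANNC on either strand, 19.6% hold AATAAA, and 17 (0.0517%) hold the 31-base stretch. The 17 include the windows of Gm42116 and Yif1b, from which the stretch was taken.

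Other classes gave a larger sample with all letters known. Among Genomic single-exon models of 150 to 210 bases, 5 of 110 in replicate 1 and 3 of 104 in replicate 2 held the 31-base stretch, and among longer ones of up to 600 bases it was 2 of 553 and 2 of 466. Among Antisense models the counts were 2 of 32 and 5 of 42 in the shorter window, against 3 of 199 and 1 of 178 in the longer one. All letters were known for 110 of 387 and 104 of 299 shorter Genomic models, and for 553 of 728 and 466 of 601 longer ones. For Antisense models they were known for 32 of 401 and 42 of 358, and for 199 of 820 and 178 of 667. The 2 lengths were thus searched to unlike extents. How many of the short intergenic loci are repeat copies was not tested, since no repeat annotation was used, and the treatment of reads from near-identical copies is not stated in the sources used here.

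Short and longer loci differed in how well their ends matched between the libraries. The 692 loci of 150 to 210 exonic bases (median 178) are called short below, and the other 739 had a median of 1236 bases. Of loci with intergenic reads in both libraries, the 5′ ends of the leading models lay within 5 bases of each other in 97.5% of 560 short loci (exact 95% interval 95.8 to 98.6%), against 47.3% of 539 other loci (43.0 to 51.6%). The median distance of 5′ ends was 1 base for short loci and 37 bases for the others. The 3′ ends lay within 5 bases in 84.3% of short loci and 75.3% of the others. The 3′ ends of longer loci thus matched more often than their 5′ ends, while in short loci the 5′ ends matched more often. Since loci are classed by the models of both libraries joined, unequal ends can themselves lengthen a locus. With the class set by the leading model of replicate 1 alone, the 5′ ends lay within 5 bases in 96.0% of 575 short and 47.5% of 524 other loci, and with that of replicate 2 alone in 94.1% of 593 and 48.0% of 506. Loci with an end at an end of an annotated gene, 206 in all and 11 of them short, were not left out. The shares were not computed without them. These shares describe loci, which are not replicates.

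**Figure D2:**
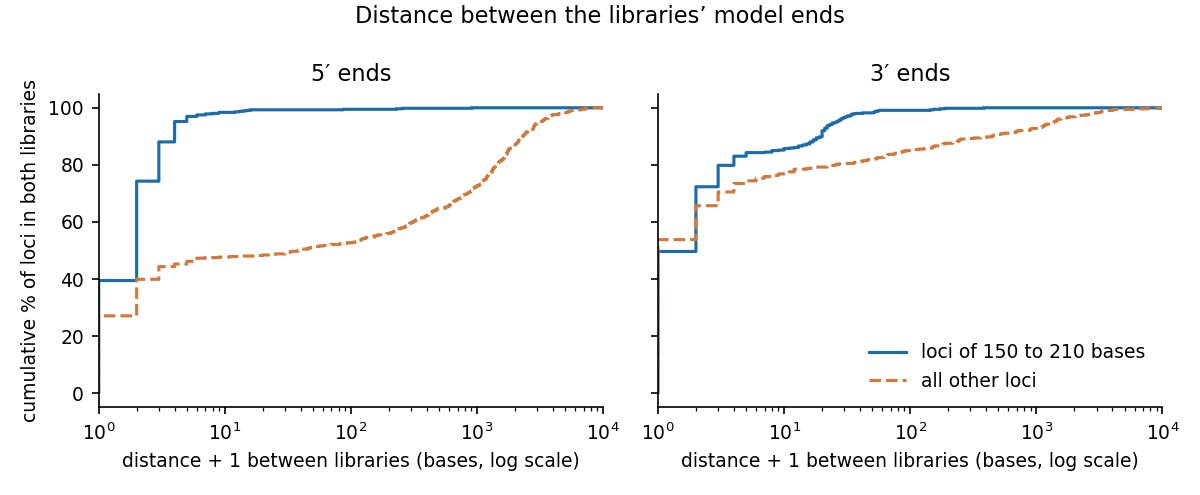
Cumulative share of loci with reads in both libraries (y axis, %) by the distance between the libraries' model ends (x axis, bases + 1, log scale), for 5′ ends (left) and 3′ ends (right). At 5′ ends the short loci (solid line) reach 97.5% within 5 bases and the other loci (dashed line) 47.3%.

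Intergenic models off the mitochondrial chromosome took 1.91% of reads in replicate 1 (15758 reads in 5931 models) and 1.69% in replicate 2 (12626 reads in 5346 models), a mean of 1.80% ± 0.150 (SD, n = 2). Most of these models fell short of the rule, with 3933 and 3709 of them on a single read. Members alone held 10077 reads (1.22%) in replicate 1 and 7395 (0.992%) in replicate 2. Their median was 4 reads in each library, and 189 and 148 models had at least 10. Members used both strands about equally, with 559 of 1124 and 442 of 876 on the plus strand. Placed chromosomes carried from 39 loci on X to 131 on chromosome 2, apart from Y. On Y, which a female lacks, 2 loci were placed, L1430 with 1 and 6 reads and L1431 (181 bases) with 8 and 7 reads in replicates 1 and 2.

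Most loci recurred. Intergenic reads from both libraries lay in 1099 of 1431 loci (76.8%), while 207 had them in replicate 1 only and 125 in replicate 2 only. A model with at least 3 reads was present in both libraries at 554 loci. Of the 1116 loci with a member in replicate 1, 909 had an intergenic read in replicate 2 (81.5%, exact 95% interval 79.0 to 83.7%). In the other direction, 744 of 869 loci had one in replicate 1 (85.6%, 83.1 to 87.9%). When reads of models of any class at the same place and strand were counted, these shares were 87.6% and 91.6%. A count of 0 allows up to 3.63 CPM in replicate 1 and 4.02 CPM in replicate 2, so absence from a library is not shown for loci near the minimum.

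Recurrence in intergenic reads was lowest for loci with 3 reads and below that of annotated genes at each number of reads, but genes were counted on reads of all their models. Of loci with a member and 3 reads in replicate 1, 70.5% had an intergenic read in replicate 2, against 85.8% of annotated genes. At 10 or more reads in replicate 1 the shares were 92.6% of 188 loci and 99.9% of 9275 genes. Taken from replicate 2, they were 76.8% and 88.4% at 3 reads, and 89.9% of 148 loci and 99.9% of 8933 genes at 10 or more. From replicate 2 the highest share of loci, 95.3%, was at 6 to 9 reads, where 99.1% of genes recurred. With reads of any class counted in the other library, the loci's shares were 76.1% at 3 reads and 99.5% at 10 or more from replicate 1, and 81.6% and 99.3% from replicate 2. At 6 to 9 reads in replicate 2 the loci's share by this count was 99.5%, not below that of genes. Loci were grouped by intergenic reads alone in the first library, where their reads of any class could be more. Shares by this count are thus not a like comparison with genes.

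**Figure D3:**
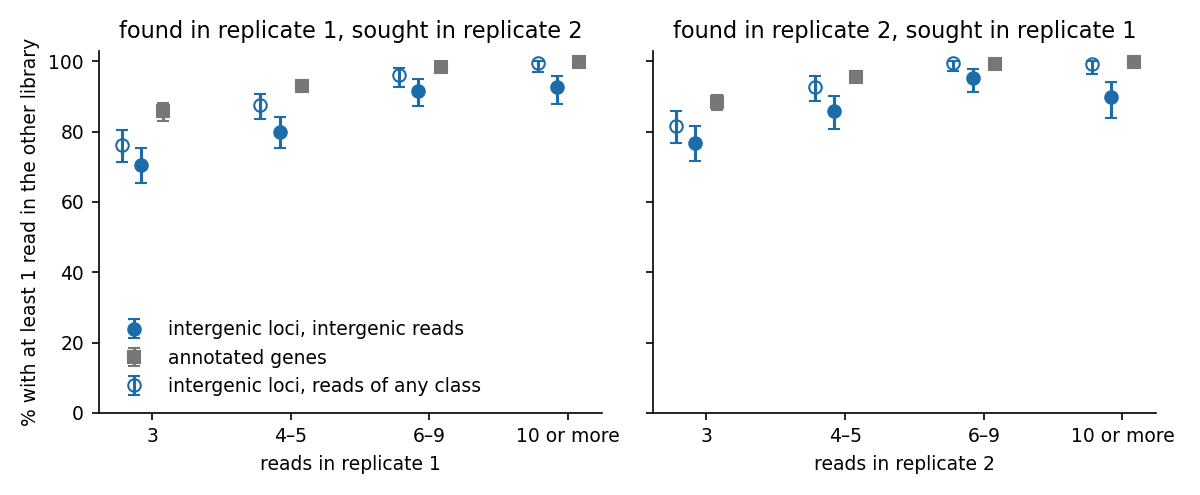
Share of features with at least 1 read in the other library (y axis, %) by their reads in the first library (x axis), for intergenic loci counted by intergenic reads (filled circles) or by reads of any class (open circles) in the other library, and annotated genes (squares), with exact 95% intervals. Filled circles lie below the squares throughout, and open circles lie close to them from 6 reads on. Loci are placed on the x axis by intergenic reads alone, and genes by reads of all their models.

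The 12 loci with the highest mean level held 23.5% of the loci's reads in replicate 1 and 19.7% in replicate 2, and 7 of the 12 were short. L0459 (chr15:103619061-103619240, plus strand, 1 exon of 180 bases) led with 712 reads in replicate 1 and 575 in replicate 2, or 861 and 771 CPM (mean 816 ± 63.7, SD, n = 2). Its nearest annotated gene, the lincRNA Gm49272, lies 30552 bases away. The leading model of this locus had the same first and last base in both libraries.

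L0068 (chr1:171300679-171300875, plus strand, 197 bases) had 314 and 205 reads, 380 and 275 CPM. L0047 (chr1:132824796-132824984, minus strand, 189 bases) had 205 and 121 reads, 248 and 162 CPM. The log2 ratios of replicate 1 to replicate 2 were 0.46 for L0068 and 0.61 for L0047, both short of 2-fold. Their adjusted p-values in the exact binomial test between the libraries, described below, were 0.043 and 0.031. They thus passed its p limit and missed only its fold limit. L0851 (chr3:95924915-95925089, 175 bases), 4157 bases from Anp32e, which encodes a histone chaperone, had 197 and 152 reads, or 221 ± 24.3 CPM. L0775 (chr2:164866188-164866367, 180 bases), 8477 bases from the phospholipid transfer protein gene Pltp, had 137 and 108 reads, or 155 ± 14.8 CPM. The other short loci of the 12, L0201 on chromosome 11 and L1222 on chromosome 7, reached 88.3 ± 13.6 and 82.2 ± 13.8 CPM.

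Longer loci were also among the highest. L1164 (chr7:28187294-28189517, minus strand, 2224 bases) had 175 and 154 reads, or 209 ± 3.63 CPM, and ended at the last annotated base of Dyrk1b, a protein kinase gene on the plus strand. L0302 (chr12:109581013-109583298, minus strand, 2286 bases) had 88 and 70 reads, or 100 ± 8.88 CPM. It lies within the RefSeq gene Rtl1, a retrotransposon-derived, paternally expressed imprinted gene, and 698 bases from the microRNA gene Mir493. The 5′ ends of its leading models were 2150 bases apart in the libraries and the 3′ ends 1 base. L1349 (chr9:67750590-67757599, minus strand, 7010 bases) had 64 and 58 reads, or 77.6 ± 0.265 CPM, and begins 1113 bases past the end of the lincRNA gene M5C1000I18Rik. The lengths of these loci are those of their models joined. In replicates 1 and 2 the leading models had 1379 and 2224 bases at L1164 and 135 and 2286 at L0302. At L1349 they had 254 and 1179 bases.

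**Figure D4:**
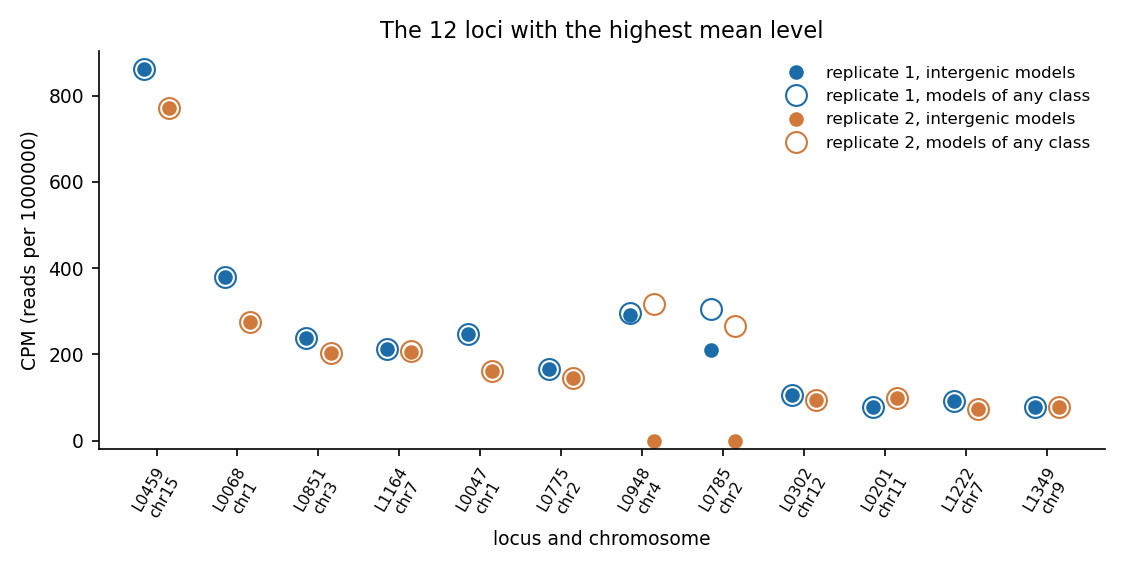
Level in CPM (y axis) of the 12 loci with the highest mean, in replicate 1 (blue, left of each pair) and replicate 2 (orange), from intergenic models (filled) and from models of any class at the same place and strand (open rings). L0948 and L0785 have 0 intergenic reads in replicate 2, while their rings lie close together.

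The name intergenic did not hold for every member by position. Against GENCODE M21 on mm10, the annotation named in the deposited files, 206 loci (14.4%) shared bases with an annotated gene, and each of them shared exactly 1 base. The short class gave 11 of these (1.59% of short loci) and the other class 195 (26.4%). On the same strand 85 loci began at the last base of a gene and 20 ended at the first base of one. On the opposite strand 59 loci began at the first base of a gene and 42 ended at the last base. The remaining 1225 loci lay off annotated genes, but only 1 of them within 300 bases of a gene and 41 within 500 bases. Loci thus touched the end of a gene by 1 base or, with 1 exception, lay more than 300 bases from any gene. Why so few lay close to a gene without touching it was not tested, nor was how far the recorded ends are the ends of the RNA.

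Most loci off genes were still near one. The median distance to the nearest gene over all loci was 3041 bases (quartiles 883 and 9540), with 5632 bases for short loci and 1391 for the others. Without the loci that share a base with a gene, these medians were 5713 bases for short loci and 2498 for the others. Of the 1223 loci off genes that had an annotated gene on their chromosome or contig, 15.4% lay within 1 kb of a gene, 55.3% within 5 kb and 94.6% within 50 kb, and 66 were farther. The nearest gene was protein-coding for 904 loci, a processed pseudogene for 193 and a lincRNA for 134. Within 5 kb past the end of a gene on the same strand lay 219 of the 1225 loci (17.9%), made up of 83 short loci (12.2% of those off genes) and 136 others. Within 5 kb before the start of a gene on the opposite strand lay 180 (14.7%), which is 15.9% of short and 13.2% of other loci. RefSeq has a gene over 284 of the 1225 loci (23.2%), among them 153 over protein-coding and 124 over lncRNA genes. The strand of the RefSeq gene was known for 201 of the 284, and 91 of these loci lay on the same strand. Short loci overlapped a RefSeq gene on either strand in 13.8% of cases and the others in 34.9%.

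Loci past the ends of genes included L1298, which began at the last annotated base of Cmip (chr8:117459430-117461503, plus strand) and had 19 and 14 reads, or 20.9 ± 2.97 CPM. It was listed for Mir7078, whose end on the same strand lies 102 bases before it. L0804 (chr2:181141336-181147095, minus strand, 5760 bases) began 558 bases past the end of Eef1a2, which encodes a translation elongation factor of neurons and muscle, inside the RefSeq gene of that name. It had 13 reads in replicate 1 and 18 in replicate 2, or 19.9 ± 5.95 CPM, at a log2 ratio of -0.60. L1214 (chr7:112113699-112115303, minus strand, 1605 bases) began 714 bases past the end of Dkk3, which encodes a secreted protein of the Dickkopf family. It had 23 and 24 intergenic reads, against 155 and 142 reads of any class at the same place and strand.

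Loci that begin in a promoter and run away from its gene are shown by their letters. In all, 26 loci began in the RefSeq promoter window of a gene on the opposite strand, 22 of them with reads in both libraries and 2 of them short, and 6 began in a window on the same strand. Windows of the 26 held a median of 25.5 CpG, against 7 over all 32851 windows, and a median of 63.0% G and C, against 52.7%. All windows were used whatever the kind or level of their gene. Whether the 26 differ from windows of like genes was not tested. At 8 of the 26 the locus began exactly at the first base of the RefSeq gene. The windows below belong to the pair with the most reads in the library where they had fewer. Each is given on the strand of its gene, 250 bases before the start and 50 from the start on, with capitals for the 251 bases that lie in the locus (RefSeq, GRCm38.p6).
Tbc1d22a, chr15:86214209-86214508, plus strand: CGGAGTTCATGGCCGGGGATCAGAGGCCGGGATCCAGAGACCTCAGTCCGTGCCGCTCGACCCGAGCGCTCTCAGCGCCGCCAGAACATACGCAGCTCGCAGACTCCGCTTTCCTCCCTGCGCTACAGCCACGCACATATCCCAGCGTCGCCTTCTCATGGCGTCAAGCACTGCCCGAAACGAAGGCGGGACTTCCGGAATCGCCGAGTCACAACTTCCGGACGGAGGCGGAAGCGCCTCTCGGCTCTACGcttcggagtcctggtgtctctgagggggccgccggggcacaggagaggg
Selenoi, chr5:30232331-30232630, plus strand: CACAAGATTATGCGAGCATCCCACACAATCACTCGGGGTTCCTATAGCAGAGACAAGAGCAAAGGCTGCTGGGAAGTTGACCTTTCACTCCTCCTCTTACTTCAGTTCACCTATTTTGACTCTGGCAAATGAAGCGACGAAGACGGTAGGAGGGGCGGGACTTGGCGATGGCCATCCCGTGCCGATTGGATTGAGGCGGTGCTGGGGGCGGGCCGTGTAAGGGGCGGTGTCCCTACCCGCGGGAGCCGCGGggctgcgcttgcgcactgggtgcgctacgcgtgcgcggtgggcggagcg

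L0442 (chr15:86212657-86214459, minus strand), at Tbc1d22a, had 10 reads in replicate 1 and 13 in replicate 2, and its window holds 33 CpG. L0995 (chr5:30223098-30232581, minus strand), at Selenoi, which encodes an enzyme of phospholipid synthesis, had 9 reads in each library, and its window holds 26 CpG. Both loci begin at the first base of the gene on the other strand, so the capitals cover the whole stretch before the start. Whether these recorded starts are those of the RNA was not tested. L0442 also shares a base with an annotated gene on its own strand.

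Splicing was rare among the members, with 13 spliced models in replicate 1 and 8 in replicate 2. They made up 18 loci, 15 of them with 2 exons, and introns of 57 to 32673 bases. The chain of introns was present in both libraries in 14 of the 18. L1057 (chr5:139485053-139512000, plus strand) led with 56 and 42 reads, or 62.0 ± 8.07 CPM, in exons of 52 and 108 bases around an intron of 26788 bases. It begins 504 bases before the start of Zfand2a, a zinc finger gene on the opposite strand, and its ends were the same to the base in both libraries. L0044 (chr1:131851862-131852163, plus strand), 2997 bases past the end of the magnesium transporter gene Slc41a1, had 13 and 8 reads. L0995, at Selenoi, had a chain of exons of 257 and 6779 bases and was the only other spliced locus with more than 10 reads in all. Letters at the splice sites were not analysed here.

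Of the 66 loci farther than 50 kb from any gene, 44 were short, against 681 of all 1223 loci off genes with a distance. Of the 5 farthest among loci with at least 10 reads in each library, 4 were short, from which nothing is read. L0419 (chr15:45216280-45216504, minus strand, 225 bases), 101360 bases from the potassium channel gene Kcnv1, had 13 reads in each library, or 16.6 ± 1.21 CPM. L0519 (chr16:97257613-97257790, minus strand, 178 bases), 86861 bases from Dscam, which encodes a neuronal adhesion molecule, had 12 reads in each library, or 15.3 ± 1.12 CPM. The other 3, L0402 on chromosome 14, L0040 on chromosome 1 and L0315 on chromosome 13, lay 45548, 41650 and 37573 bases from a processed pseudogene. L0315 had 23 and 11 reads, and the others 15 to 20.

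To see which loci differed between the libraries, the reads of each locus and each annotated gene with at least 20 reads in both together were set against the ratio of the totals by a two-sided exact binomial test. Of 9200 features, 40 (0.435%) differed by 2-fold or more with p under 0.05 after Benjamini-Hochberg adjustment and are called here, 0.196% higher and 0.239% lower in replicate 1. Among the 150 loci tested 11 were called (7.33%), with 5 higher and 6 lower in replicate 1, and among 9050 genes 29. The median log2 ratio was 0.25 over the loci and -0.01 over all features. All 11 called loci had 0 intergenic reads in one library, and they were the only tested loci of which that was true. The intergenic reads tested are also those that chose the members, and a locus with reads in one library only entered through that library, so these calls are a description and nothing is read from their share.

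L0948 (chr4:133095952-133101548, plus strand, 5597 bases) had 240 intergenic reads in replicate 1 and 0 in replicate 2, at least 72.2-fold higher when 3 reads are set for the 0. Its leading model in replicate 1 had 417 bases. At the same place and strand, however, replicate 2 had 229 reads in models classed as Antisense, and reads of any class came to 245 and 236. L0785 (chr2:172509432-172509521, minus strand, 90 bases), which begins at the last base of the processed pseudogene Gm14303, had 174 and 0 intergenic reads, against 253 and 199 of any class. L0255 (chr12:10898572-10898986), at the last base of the processed pseudogene Pgk1-rs7, had 0 intergenic reads in replicate 1 and 51 in replicate 2, at least 18.8-fold lower, and 36 and 59 of any class.

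Other called loci had the same pattern. L0771 (chr2:157551685-157555583), 779 bases from Blcap, had 34 and 0 intergenic reads, and replicate 2 had 37 there in models classed as Genomic. L0296 (chr12:102270416-102270698), 3325 bases from the exchanger gene Slc24a4, had 0 and 31, and replicate 1 had 19 in models classed as Antisense. In all 11 called loci the library without intergenic reads had reads of another class. With reads of any class counted in the same test, none of the 11 was called, with 2 at an unadjusted p under 0.05 and a smallest adjusted p of 0.313 at L0255. By this count 29 of 9256 features (0.313%) were called and, among 206 loci tested, 1, L0179 (chr11:69839618-69839979, plus strand), which begins at the last base of Tmem256 and is named after its values were seen. It had 50 reads of any class in replicate 1 and 12 in replicate 2, of which 3 and 1 were intergenic. At L0785, L0255 and L0827 the reads of other classes were of annotated models, and each of these 3 loci shares 1 base with an annotated gene. That 1 base suffices for reads of the gene to be counted, so how far they are reads of the locus is not known. Whether the same RNA was classed differently in the libraries was not tested, and the test with all classes does not show that the levels are equal.

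**Figure D5:**
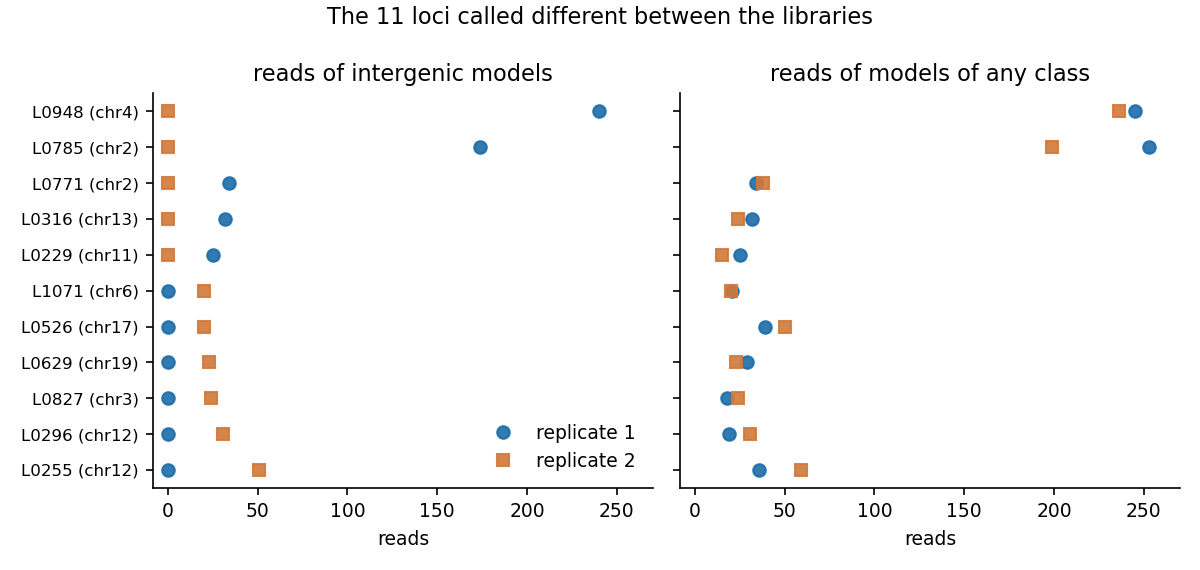
Reads (x axis) at the 11 loci called different between the libraries, in replicate 1 (circles) and replicate 2 (squares), counted from intergenic models (left) and from models of any class at the same place and strand (right). One library is at 0 for each locus on the left, and neither is at 0 on the right.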

How the data were processed

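The authors deposited raw counts of long reads per transcript model for each library, beside other deposited values, the exon number and length of the models. Per the file headers, the structures come from TALON, and per the deposited text files they rest on mm10 and GENCODE M21. For the aligner, platform and versions, nothing is given in the sources used here. Each library was processed by itself, so models were matched by position and strand.

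The members and lists were chosen with earlier results of these data known. Reads of a locus are those of all intergenic models that share exonic bases with it on the same strand. Reads of any class are counted likewise over models of all classes, with at least 1 shared exonic base. The length of a locus is that of the exonic bases of its members joined. CPM is per 1000000 reads not on spike-ins. Intervals are exact 95% Clopper-Pearson intervals, and a count of 0 allows 3 counts. Both cover counting error only, and p-values of the exact binomial test, which takes reads as independent, may be too small. Fold changes add 0.5 to each count.

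Named loci are the 12 with the highest mean CPM and up to 8 spliced ones with their chain in both libraries. The 5 with the smallest p-values are also named. Among loci with at least 10 reads in each library, the 5 farthest from a gene were added. So were the 3 closest past a gene's end on the same strand and the 3 closest to an opposite start. Genes that a locus touches were left out when the closest were ranked. The test was checked on simulated data. Alternatives changed the read minimum, the joining of models, the scaling (TMM with edgeR 4.0.16, size factors with DESeq2 1.42.0) and the classes counted. Python 3.11.15 with pandas 2.3.3, numpy 2.4.6, scipy 1.17.1 and Biopython 1.88, and R 4.3.3, were used. All coordinates are 1-based on mm10.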

Additional observations from a re-analysis of the deposited data

Results flagged for a closer look

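On the mitochondrial chromosome, which the choice of members leaves out, replicate 2 had 1 single-exon model classed as intergenic with 152 reads, 204 CPM, at chrM:15422-16188 on the minus strand. Replicate 1 had no intergenic model there, and a count of 0 allows up to 3.63 CPM of intergenic reads in replicate 1. Reads of other classes at that place were not counted, so absence of the RNA from replicate 1 is not shown. The difference between the libraries was not tested.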

How the results depend on the processing

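The share of loci with a member in one library that had an intergenic read in the other, a mean of 83.5% ± 2.94 over both directions, was 71.6%, 91.5% and 91.2% with members of at least 2, 5 and 10 reads. It was 89.6% with reads of any class and 57.0% with at least 3 reads asked of each library. Joining by whole spans, within 100 bases or without strand, placed chromosomes alone, and, chosen after seeing the data, at least 10 shared bases or leaving out loci that share a base with a gene moved it by less than its SD. Models per library, a mean of 1000, were 1818, 485 and 168.5 at those read minimums and 461 with at least 200 bases, and ranged from 876 to 1124 with a replicate left out. The share of reads, 1.80%, was 1.11% for models of at least 3 reads and 1.69 to 1.91% with a replicate left out. Spliced loci, 18 in all, numbered 39, 6 and 2 at the read minimums and 8 to 13 with a replicate left out (8 without replicate 1). The median distance to a gene, 3041 bases, was 5310 bases to protein-coding genes, 2874 for at least 10 reads, 3258 for loci in both libraries, 4159 without loci that share a base with a gene, and 2997 to 3216 with a replicate left out. The share of members of 150 to 210 bases, 52.0%, was 45.9% for 160 to 200 bases and 55.0% for at least 10 reads, both chosen after seeing the data. Loci called between the libraries, 11 in all, numbered 25 with at least 10 reads together, 23 with no filter, 13 with no fold limit and 1 with reads of any class. Over all features these settings called 60, 53, 68 and 29, against 40. TMM or DESeq2 factors gave 11 loci. The share of short loci with 5′ ends within 5 bases, 97.5%, was 94.1% with the class set by replicate 2 alone.

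The level of L0459, 816 CPM, ranged from 771 to 861 with a replicate left out. With both replicates kept, the levels of the other 11 highest loci moved by less than their SD in 21 of 22 settings. Leaving one out of 2 moves a mean by less than its SD by construction, and L0948 and L0785 had 0 CPM without replicate 1. Shares of polyadenylation hexamers and splice-site letters over all loci were not run, since they need a genome of the files' build. No paired analysis was possible because the study has 1 group. With 2 libraries an SD has little precision, and most members hold under 10 reads, so their absence from a library is not shown.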
